A study of Mus musculus with 12 samples.

Results

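The MHC class I presentation genes described here are 10 genes chosen by symbol from a count table of mouse bone marrow-derived macrophages (BMDMs) that lists 24421 symbols: *H2-K1*, *H2-D1*, *B2m*, *Tap1*, *Tap2*, *Tapbp*, *Psmb8*, *Psmb9*, *Nlrc5* and *Erap1*. All 10 had enough counts to be tested, among 11468 genes that did. The study asked how iBET (I-BET151, a small molecule that blocks the bromodomains of BET proteins, which read acetylated histones) alters the macrophage response to IgG immune complexes. Bone marrow of wild-type C57BL/6 mice was cultured with 100 ng/mL of M-CSF for 5 days, and the medium was renewed on day 3. Cells then received iBET at 5 µM or the solvent DMSO, given in the labels as 5%, and were stimulated for 4 hours with ovalbumin (Ova) or with ovalbumin bound by IgG in immune complexes (IC). The labels give no solvent level for the iBET libraries, so whether the solvent was matched is not known. The labels have drug and stimulus added together and the study's methods have the drug added first, so the order is uncertain. The 4 groups are DMSO_Ova, IBET_Ova, DMSO_IC and IBET_IC, each of 3 libraries, with mice A, B and C represented once in every group. All groups share the strain, the M-CSF culture and ovalbumin, and no group was left without stimulus or without solvent or drug. The study used mice of both sexes, and the age and sex behind each library were not given in the sources used here.

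Class I molecules show peptides from inside the cell to CD8 T cells. The proteasome, whose catalytic subunits can be swapped for the inducible *Psmb8* and *Psmb9* products, cuts proteins into peptides, the TAP1 and TAP2 transporter carries them into the endoplasmic reticulum, and ERAP1 trims them there. Tapasin, encoded by *Tapbp*, holds the transporter beside a heavy chain (H2-K1 or H2-D1 in this strain) paired with beta-2 microglobulin (*B2m*) while a peptide is loaded, and NLRC5 is the transactivator that drives many of these genes together with regulatory factor X and nuclear factor Y proteins. Macrophages express the pathway constitutively and raise it in response to interferons.

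The genes lie on 4 chromosomes of the mm10 (GRCm38) build. From GENCODE vM21, *Tapbp* (chr17:33915899-33929292), *H2-K1* (chr17:33996017-34000347), *Psmb9* (chr17:34181987-34187764), *Tap1* (chr17:34187553-34197225), *Psmb8* (chr17:34197721-34201454), *Tap2* (chr17:34203527-34216321) and *H2-D1* (chr17:35262730-35267499) follow each other in that order on chromosome 17, within the H2 complex. *B2m* (chr2:122147686-122153083), *Nlrc5* (chr8:94434356-94527272) and *Erap1* (chr13:74639568-74693201) lie elsewhere. *Psmb9* and *Tap1* are transcribed away from each other and their annotated exons overlap by 212 bases on opposite strands. Exons of other genes cover 29.0% of the *Tapbp* exon bases, 18.5% of *Tap2*, 14.7% of *Psmb8* and 11.5% of *Erap1*, most of it on the opposite strand, and whether the authors' counting used strand was not stated.

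The sequence around the RefSeq start of these genes shows which of them share regulatory letters. Windows of 300 bases (250 before the start and 50 after) were taken from RefSeq on GRCm38 for 8 of the 10 genes, all but *Tap2* and *Nlrc5*. RefSeq and GENCODE starts differ for some genes. The windows of *Tapbp*, *H2-D1*, *Psmb8*, *Psmb9* and *Erap1* lie wholly inside the GENCODE intervals given above and do not hold the GENCODE start. The motifs were searched on both strands, chosen after these windows had been read: the interferon-stimulated response element core GAAANNGAA, the gamma-activated site TTCNNNGAA, the kappaB core GGGATTCCC, TGACG from the cyclic AMP response element and the CCAAT box CCAAT, whose other strand reads ATTGG. The windows below, 1 for each heavy chain, for *B2m*, for *Tap1* and for *Tapbp*, are printed 5′ to 3′ on the strand of the gene with matches in capitals, because the heavy chains, *B2m* and *Tapbp* were the members with higher estimates that had a window, and *Tap1* shares its window with *Psmb9*. They are chr17:34000298-34000597 on the minus strand, chr17:35262844-35263143, chr2:122147437-122147736, chr17:34187306-34187605 and chr17:33919228-33919527 on the plus strand.
H2-K1: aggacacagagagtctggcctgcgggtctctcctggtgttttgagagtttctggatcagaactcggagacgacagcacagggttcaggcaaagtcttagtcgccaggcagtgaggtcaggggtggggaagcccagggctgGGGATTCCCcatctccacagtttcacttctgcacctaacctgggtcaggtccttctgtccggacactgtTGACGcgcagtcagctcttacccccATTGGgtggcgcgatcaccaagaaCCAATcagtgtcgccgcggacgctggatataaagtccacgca
H2-D1: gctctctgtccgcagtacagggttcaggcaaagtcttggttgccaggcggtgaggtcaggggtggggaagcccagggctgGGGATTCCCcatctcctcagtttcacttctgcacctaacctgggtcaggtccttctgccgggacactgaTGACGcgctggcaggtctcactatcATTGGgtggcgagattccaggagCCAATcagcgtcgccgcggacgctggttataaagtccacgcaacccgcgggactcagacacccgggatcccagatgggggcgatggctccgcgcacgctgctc
B2m: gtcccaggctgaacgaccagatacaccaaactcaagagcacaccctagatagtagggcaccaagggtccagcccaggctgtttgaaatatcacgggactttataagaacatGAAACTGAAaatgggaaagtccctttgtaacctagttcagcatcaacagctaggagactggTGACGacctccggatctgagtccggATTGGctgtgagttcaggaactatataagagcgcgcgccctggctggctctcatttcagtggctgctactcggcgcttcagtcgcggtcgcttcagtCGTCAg
Tap1: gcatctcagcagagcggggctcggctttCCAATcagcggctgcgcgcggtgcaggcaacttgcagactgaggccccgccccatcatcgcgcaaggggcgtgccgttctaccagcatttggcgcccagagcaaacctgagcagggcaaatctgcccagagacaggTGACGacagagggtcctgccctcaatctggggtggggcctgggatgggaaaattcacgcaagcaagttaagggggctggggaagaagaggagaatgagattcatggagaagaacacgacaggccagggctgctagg
Tapbp: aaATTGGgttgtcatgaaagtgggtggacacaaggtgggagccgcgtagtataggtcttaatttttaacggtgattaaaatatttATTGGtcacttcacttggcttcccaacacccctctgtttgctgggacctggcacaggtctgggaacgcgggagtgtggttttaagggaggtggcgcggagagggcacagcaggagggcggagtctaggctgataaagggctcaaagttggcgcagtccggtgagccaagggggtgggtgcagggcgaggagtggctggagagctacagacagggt

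The *H2-K1* and *H2-D1* windows were identical at 214 of 239 aligned bases (89.5%). Both held GGGATTCCC, which occurred in 0.353% of the 32851 RefSeq windows of this length. In *H2-K1*, *H2-D1* and *B2m*, TGACG was followed by ATTGG, with the starts of the pair 25 bases apart in each gene. That spacing, chosen after it was seen here, occurred in 31 of the 32851 windows (0.0944%). TGACG alone was in 20.8% of windows and in 5 members (also *Tap1* and *Psmb9*). CCAAT was in 37.4% of windows and in 6 members (the same 5 and *Tapbp*). GAAANNGAA, present in 8.56% of windows, was found in *B2m* and *Erap1*, and TTCNNNGAA, present in 8.30% of windows, in *Psmb8*. The *Tap1* and *Psmb9* windows were the same DNA over 275 bases, read from opposite strands. Only exact matches were counted, so a window without a match, such as those of the heavy chains for GAAANNGAA, may still hold a variant of the element. A match is only a run of letters, and binding was not measured here.

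Sequencing gave totals of 7.55 to 17.4 M counts a library (M, 1e6). In 11 libraries 1.41% to 7.83% of counts lay on the ribosomal RNA gene *Rn45s*, but in the DMSO_Ova library of mouse A 77.4% did, which left 1.77 M counts on other genes against 7.25 to 16.9 M. The 10 genes took 0.626% to 0.913% of the counts outside *Rn45s*. The DMSO_Ova library of mouse A had the lowest level of 5 of the 10 genes (*B2m*, *Tapbp*, *Nlrc5*, *Erap1* and *Psmb9*), and estimates that shifted most when it was left out are also given without it. Those fits keep mouse A in the other groups, so without a term for the mouse they compare unlike sets of mice. The 8 macrophage markers found in the table summed to 6325 to 7674 CPM in DMSO libraries and 7136 to 8484 CPM in iBET libraries, none of them at 0. With iBET *Mertk* in either stimulus and *Lyz2* in IC were called higher and none was called lower, and *Fcgr1* was estimated at -0.47 ± 0.28 in Ova (edgeR adjusted p = 0.230) and -0.72 ± 0.28 in IC (adjusted p = 0.0637). Neutrophil and precursor markers reached 56.4 CPM, and those of dendritic cells, B cells, T and NK cells, erythroid cells and stroma at most 1.74, 1.33, 4.59, 0.338 and 2.05 CPM. The part of the macrophage markers in the results was not tested, and in bulk RNA fewer cells and less RNA a cell cannot be told apart.

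Levels of different genes were set side by side as TMM-normalized CPM (counts scaled to a common library size) for each kilobase of annotated exon. *B2m* was highest in every library, with a median over 12 libraries of 2909 CPM per kb, followed by *H2-D1* at 858 and *H2-K1* at 287. *Tapbp* came next at 123 CPM per kb. *Psmb8* (25.9), *Erap1* (15.1), *Tap1* (12.3) and *Tap2* (8.58) formed a middle range, and *Nlrc5* (4.04) and *Psmb9* (3.22) were lowest. Each gene lay above the next in this order in 12 of 12 libraries, except *Nlrc5* and *Psmb9*, whose ranges overlapped and whose order held in 9 of 12. The presenting molecule itself, heavy chains and *B2m*, was more abundant per kilobase than the transporter and the inducible proteasome subunits in all 4 groups. As group means ± SD (n = 3), *B2m* stood at 2626 ± 547 CPM per kb in DMSO_Ova and 3510.4 ± 585 in IBET_IC, and *Psmb9* at 3.29 ± 0.828 and 3.07 ± 0.184. Annotated exon length counts all isoforms, so genes with long rare exons are understated.

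**Figure D1:**
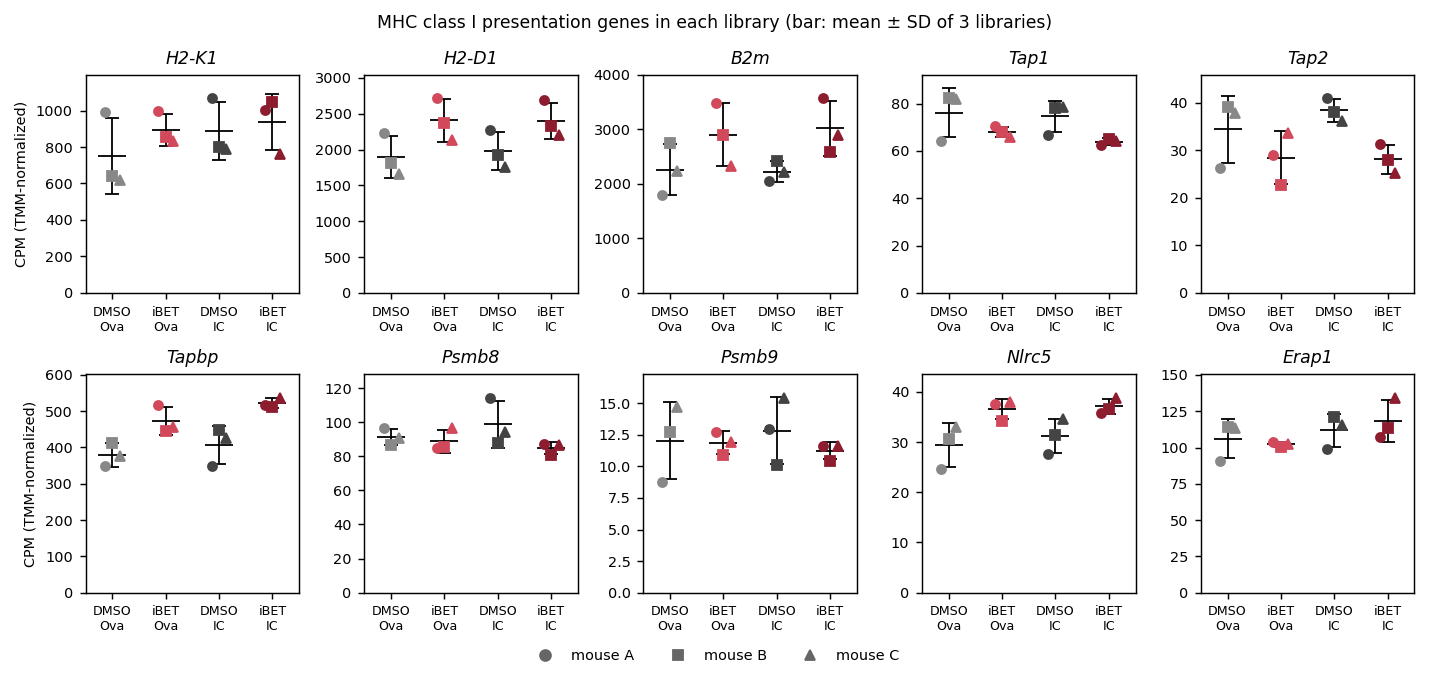
TMM-normalized CPM (vertical axes, each from 0) of the 10 MHC class I presentation genes in the 12 libraries, by group, with a marker for each mouse and a bar for the mean ± SD of 3 libraries. *Tapbp* lies at 348 to 448 CPM in the 6 DMSO libraries and 446 to 537 in the 6 iBET libraries, while the groups of most other genes overlap in at least 1 stimulus.

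The main comparison asked whether iBET changed these genes. With iBET 1 of the 10 class I pathway genes was called in Ova and 1 in IC, and it was *Tapbp*, higher, in each. By edgeR's quasi-likelihood test with Benjamini-Hochberg adjustment (called at an adjusted p under 0.05), 31.3% of all tested genes were called with iBET in Ova (17.1% higher, 14.2% lower) and 34.8% in IC (19.0% higher, 15.8% lower). At an unadjusted p under 0.05 there were 3 members in Ova (*Tapbp*, *H2-D1* and *Nlrc5*), beside 4774 of all 11468 tested genes. In IC there were 3 (*Tapbp*, *Tap2* and *B2m*), beside 5094 of 11468. The median log2 fold change of the 10 was 0.11 in Ova and 0.081 in IC, beside 0.019 and -0.0037 over all tested genes. In Ova the 3 iBET libraries did not overlap the 3 DMSO libraries for 2 members (*Tapbp* and *Nlrc5*), beside 45.1% of all tested genes, and in IC for 6 (*B2m*, *Tap1*, *Tap2*, *Tapbp*, *Psmb8* and *Nlrc5*), beside 48.6%. Fitted changes of members ran from -0.31 (*Tap2*) to 0.36 (*B2m*) in Ova and from -0.44 (*Tap2*) to 0.44 (*B2m*) in IC, none of them as large as 1 on the log2 scale.

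Because every group held a library of each of the 3 mice, the mouse was also fitted as a block. Then 2 members were called in Ova (*H2-D1* and *Tapbp*, beside 38.3% of all genes) and 3 in IC (*H2-D1*, *Tap2* and *Tapbp*, beside 42.1%). Without the DMSO_Ova library of mouse A, and with no block, 4 were called in Ova (*H2-K1*, *H2-D1*, *Tap1* and *Tap2*, beside 29.3%) and 2 in IC (*Tap2* and *Tapbp*, beside 38.8%). The heavy chains, *B2m*, *Tapbp* and *Nlrc5* had estimates above 0 and *Tap1*, *Tap2*, *Psmb8* and *Psmb9* below 0 in both stimuli in all of these fits. *Erap1* was estimated at -0.065 in Ova and 0.079 in IC.

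**Figure D2:**
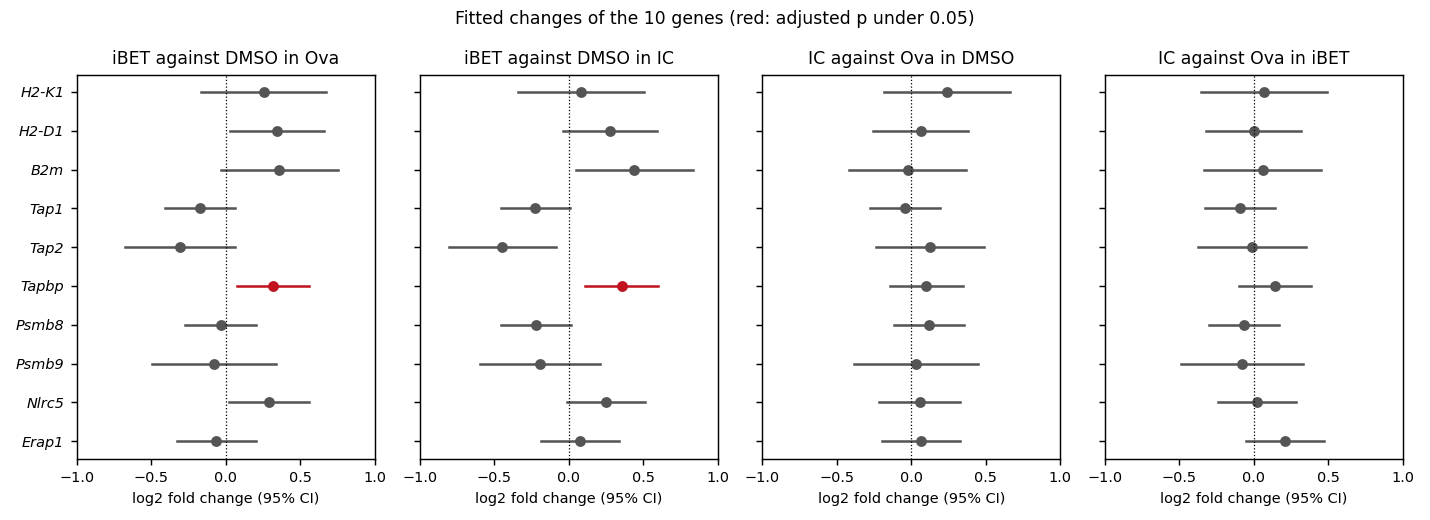
Fitted log2 fold changes (points) with 95% confidence intervals (lines) of the 10 genes in 4 comparisons, from edgeR, with called genes in red. *Tapbp* is red in the 2 comparisons of iBET with DMSO, and every interval includes 0 in the 2 comparisons of IC with Ova.

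*Tapbp* encodes tapasin, the chaperone that bridges the TAP transporter and the heavy chain. In Ova it stood at 348, 413 and 377 CPM in the DMSO libraries of mice A, B and C and 516, 446 and 457 in the iBET libraries. In IC the DMSO libraries had 349, 448 and 427 CPM and the iBET libraries 517, 511 and 537. Every iBET library lay above every DMSO library of the same stimulus, and mouse A had the lowest DMSO level in each. *Tapbp* rose by 0.32 ± 0.11 (log2 ± SE, n = 3) in Ova (1.25-fold, adjusted p = 0.0485) and by 0.36 ± 0.11 in IC (1.28-fold, adjusted p = 0.0265) by edgeR. Within mice A, B and C the log2 differences were 0.57, 0.11 and 0.28 in Ova and 0.57, 0.19 and 0.33 in IC, the largest in mouse A in both. With mouse A left out *Tapbp* was called in neither stimulus. The call in Ova sat at the threshold and was lost without the DMSO_Ova library of mouse A (0.21, adjusted p = 0.251), by DESeq2 (0.27, adjusted p = 0.0956) and in 20 more of 27 other settings, and the call in IC was lost in 9 of 27 settings, among them without the DMSO_IC library of mouse A (0.22, adjusted p = 0.156).

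The heavy chains *H2-K1* and *H2-D1*, the polymorphic chains that hold the peptide, were next. *H2-D1* stood at 2228, 1811 and 1658 CPM in DMSO_Ova (mice A, B and C) and 2720.3, 2371 and 2127 in IBET_Ova. In DMSO_IC it stood at 2276, 1918 and 1755 CPM and in IBET_IC at 2686, 2322 and 2199.8. Mouse A was highest in all 4 groups, so that the groups overlapped, but the iBET library was above the DMSO library of the same mouse in 6 of 6 pairs, by 0.29, 0.39 and 0.36 log2 units in Ova and 0.24, 0.28 and 0.33 in IC. Here and below the 6 pairs are 3 mice in 2 stimuli, so they are not independent. The share of all genes with 6 of 6 pairs in 1 direction was not determined. Without the block *H2-D1* changed by 0.34 ± 0.15 in Ova (edgeR adjusted p = 0.0953, not called) and 0.28 ± 0.15 in IC (adjusted p = 0.163, not called). With the mouse as a block it was called higher in each stimulus, at 0.35 ± 0.078 (edgeR adjusted p = 0.00415) and 0.28 ± 0.078 (adjusted p = 0.0123).

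*H2-K1* was less even between mice. It stood at 994, 642 and 622 CPM in DMSO_Ova and 995, 857 and 831 in IBET_Ova, and at 1069, 798 and 789.5 in DMSO_IC and 1005, 1048 and 760.1 in IBET_IC. In mouse A the level was 994 to 1069 CPM with or without iBET, whereas in mice B and C the Ova level was higher with iBET. The estimate was 0.25 ± 0.19 in Ova (edgeR adjusted p = 0.354) and 0.083 ± 0.19 in IC (adjusted p = 0.773), with 95% intervals of -0.17 to 0.67 and -0.34 to 0.50. Without the DMSO_Ova library of mouse A it was 0.45 in Ova (adjusted p = 0.0494).

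Values of the heavy chains carry a counting limit. Of the 50-base runs in *H2-D1* transcripts, 12.8% also occur in transcripts of other genes, and 9.63% of those in *H2-K1*, mostly other H2 genes, whereas *B2m*, *Psmb9*, *Nlrc5* and *Erap1* share none. *Tapbp* shares 2.87%, spread over 212 genes, *Tap2* 0.65%, *Tap1* 0.44% and *Psmb8* 0.23%. The study's reads were paired and longer than 50 bases, so these are not shares of ambiguous reads. A row named *H2-L* held 0.815 to 0.874 times the *H2-D1* count in each of the 12 libraries and was the tested gene with the profile closest to it, although the C57BL/6 haplotype is known to lack a separate L gene and GENCODE vM21 names none. The rows *H2-Q6* and *H2-Q8* held identical counts in 12 of 12 libraries, as did *H2-Q7* and *H2-Q9*. Whether the same reads were counted in more than 1 row was not tested, and levels of the heavy chains are uncertain to that extent.

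*B2m*, the invariant light chain of every class I molecule, stood apart in mouse A. Its DMSO libraries had 1802, 2742 and 2233 CPM in Ova and 2041, 2416 and 2213 in IC. The iBET libraries had 3469.8, 2896 and 2322 CPM in Ova and 3572, 2587 and 2898 in IC. Mouse A had the lowest *B2m* with DMSO and the highest with iBET in each stimulus, and its log2 difference was 0.95 in Ova and 0.81 in IC, against 0.057 to 0.39 in mice B and C. The iBET library was higher in 6 of 6 pairs, and the groups overlapped in Ova but not in IC. The fitted change was 0.36 ± 0.18 in Ova (edgeR adjusted p = 0.156) and 0.44 ± 0.18 in IC (adjusted p = 0.0782), neither called, and in Ova it was 0.17 without the DMSO_Ova library of mouse A. With the mouse as a block and without that library *B2m* was called higher in IC (0.41, edgeR adjusted p = 0.0380).

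**Figure D3:**
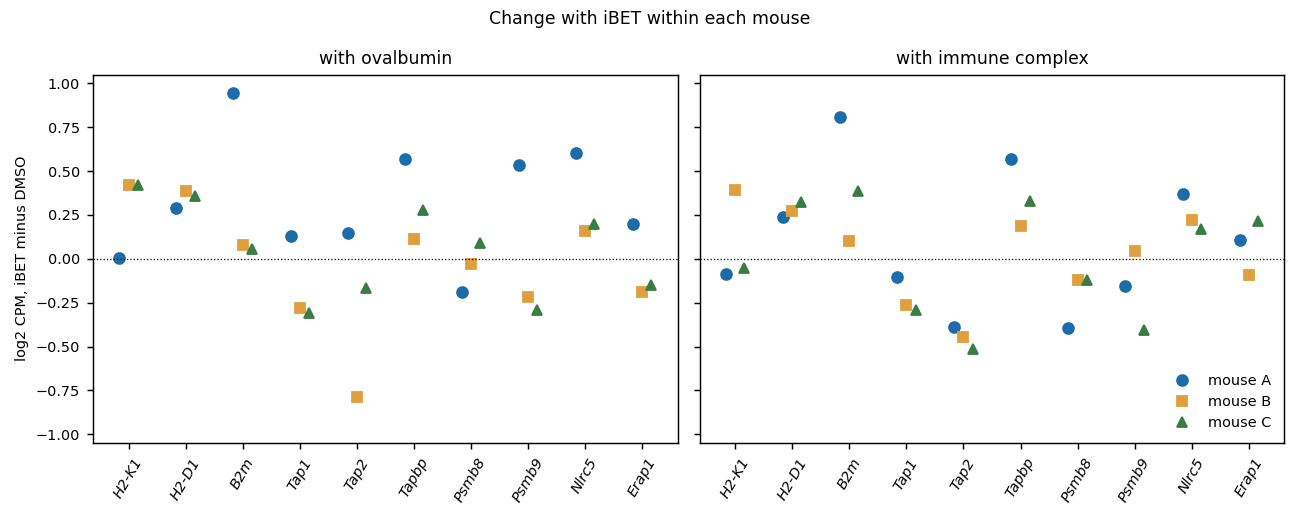
Log2 CPM with iBET minus log2 CPM with DMSO (vertical axis, prior count 2) for each gene within mice A, B and C, with Ova on the left and IC on the right. *H2-D1* is above 0 in every mouse with differences of 0.24 to 0.39, whereas *B2m* in mouse A lies at 0.95 and 0.81, apart from the other mice.

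The peptide transporter genes had estimates below 0. *Tap2* stood at 26.2, 39.2 and 37.7 CPM in DMSO_Ova, 29.0, 22.6 and 33.6 in IBET_Ova, 41.0, 38.1 and 36.0 in DMSO_IC and 31.3, 27.9 and 25.2 in IBET_IC. In IC every iBET library lay below every DMSO library, and in Ova the DMSO library of mouse A was low among the DMSO libraries, so that the groups overlapped. The change was -0.31 ± 0.17 in Ova (edgeR adjusted p = 0.189) and -0.44 ± 0.17 in IC (adjusted p = 0.0546), where the level was 26.5% lower with iBET. With the mouse as a block *Tap2* was called lower in IC (-0.44 ± 0.16, edgeR adjusted p = 0.0457), and without the DMSO_Ova library of mouse A, with no block, it was called lower in Ova (-0.48, adjusted p = 0.0336). The counts behind these values were 51 in the DMSO_Ova library of mouse A and 205 to 586 in the others.

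*Tap1*, the partner subunit, stood at 64.2, 82.4 and 81.8 CPM in DMSO_Ova and 70.4, 67.8 and 66.1 in IBET_Ova. It stood at 66.9, 78.3 and 78.6 in DMSO_IC and 62.3, 65.1 and 64.2 in IBET_IC. Mouse A was the lowest of the DMSO libraries in each stimulus, and the groups overlapped in Ova only. The change was -0.17 ± 0.11 in Ova (edgeR adjusted p = 0.245) and -0.22 ± 0.11 in IC (adjusted p = 0.125), neither called, with lower iBET values in 5 of 6 pairs. Without the DMSO_Ova library of mouse A it was called lower in Ova, at -0.32 (adjusted p = 0.0347), but not when the mouse was also fitted as a block (-0.29, adjusted p = 0.0563). In IC *Tap1* was called lower in 3 of 27 other settings. These were without the DMSO_IC library of mouse A, without mouse A and with 1 surrogate variable.

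The inducible proteasome subunits *Psmb8* and *Psmb9*, which lie beside the transporter genes, were not called in any setting tried. *Psmb8* stood at 96.6, 86.9 and 90.4 CPM in DMSO_Ova, 84.7, 85.2 and 96.5 in IBET_Ova, 114, 87.9 and 94.3 in DMSO_IC and 87.0, 80.8 and 86.8 in IBET_IC. Its groups overlapped in Ova, and in IC the iBET libraries lay below the DMSO libraries. The estimate was -0.036 ± 0.11 in Ova and -0.22 ± 0.11 in IC (edgeR adjusted p = 0.134). *Psmb9* ran from 8.73 CPM in the DMSO_Ova library of mouse A, on 17 counts, to 15.4 in a DMSO_IC library, with estimates of -0.083 ± 0.19 and -0.19 ± 0.19 and overlapping groups in both stimuli, and without that library the estimate in Ova was -0.25 (edgeR adjusted p = 0.321).

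*Nlrc5*, the class I transactivator, stood at 24.7, 30.6 and 33.1 CPM in DMSO_Ova and 37.5, 34.2 and 38.0 in IBET_Ova. It stood at 27.7, 31.4 and 34.5 in DMSO_IC and 35.9, 36.6 and 38.8 in IBET_IC. Every iBET library was above every DMSO library of its stimulus, the nearest being mouse B with iBET and mouse C with DMSO in Ova. The change was 0.29 ± 0.12 in Ova (edgeR adjusted p = 0.0985) and 0.25 ± 0.12 in IC (adjusted p = 0.128), neither called, with higher iBET values in 6 of 6 pairs. Without the DMSO_Ova library of mouse A the estimate in Ova was 0.15 (adjusted p = 0.404). *Erap1*, the trimming aminopeptidase, ran from 90.4 to 134 CPM over the 12 libraries with overlapping groups, and its 95% intervals with iBET were -0.33 to 0.20 in Ova and -0.18 to 0.34 in IC. Without the same library its estimate in Ova was -0.21 (adjusted p = 0.242).

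The immune complex comparison asked whether the stimulus itself moved the pathway within 4 hours. No member was called by edgeR with DMSO (beside 1.22% of all tested genes) or with iBET (beside 0.349%), and DESeq2 called none in either. No member had an unadjusted p under 0.05, beside 1341 of 11468 tested genes with DMSO and 860 with iBET. Without the DMSO_Ova library of mouse A none was called either, but *H2-K1* with DMSO was 0.46 (unadjusted p = 0.0128, edgeR adjusted p = 0.229) in place of 0.24, and the others ran from -0.18 (*B2m*) to 0.17 (*H2-D1*). Between the DMSO groups that fit keeps mouse A only in DMSO_IC, and mouse A had the highest *H2-K1* in each. With all libraries and the mouse as a block *H2-K1* was 0.25 (edgeR adjusted p = 0.349). With 1 surrogate variable *H2-K1* was 0.36 (adjusted p = 0.0667). In the model of all 12 libraries the estimates lay between -0.043 (*Tap1*) and 0.24 (*H2-K1*) with DMSO and between -0.093 (*Tap1*) and 0.21 (*Erap1*) with iBET. Medians of the 10 were 0.065 and 0.0087, beside -0.010 and -0.011 over all genes. With DMSO the IC and Ova groups overlapped for every member (15.3% of all genes did not overlap), and with iBET they did not for *Tap1* and *Erap1* (18.9% of all genes). *Erap1* with iBET was 0.21 ± 0.12 (n = 3, edgeR adjusted p = 0.754), with IC values of 107, 113 and 134 CPM against 104, 100.1 and 103. The intervals leave room for changes of moderate size, as for *H2-K1* with DMSO (-0.18 to 0.66) and *B2m* with DMSO (-0.42 to 0.37).

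Whether the effect of iBET differed between IC and Ova was tested as an interaction. By edgeR 0 of the 10 members and 0 of all tested genes (0%) were called, with 0 members and 292 genes at an unadjusted p under 0.05, and DESeq2 called 0 members and 4 genes. Member estimates (iBET effect in IC minus that in Ova) ran from -0.18 (*Psmb8*, 95% interval -0.52 to 0.15) to 0.14 (*Erap1*, -0.23 to 0.51). For *H2-D1* the estimate was -0.066 (-0.51 to 0.38) and for *Tapbp* 0.039 (-0.30 to 0.38). A difference within these intervals was not detectable with 3 mice. Without the DMSO_Ova library of mouse A the estimates ran from -0.39 (*H2-K1*) to 0.27 (*Erap1*), with mouse A kept in the other groups and no term for the mouse.

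The profile of *Tapbp*, the member that was called, was compared with that of every other tested gene as the root mean square (RMS) difference of log2 CPM, each gene centred on its mean over the 12 libraries. Its own spread was 0.21. The closest genes were *Tgfbrap1* (RMS difference 0.060), *Api5* (0.064) and *Plekhb2* (0.065), and without the DMSO_Ova library of mouse A they were *Api5* (0.054), *Metap1* (0.058) and *Gapvd1* (0.059). Among the members themselves the closest pair was *Tapbp* and *Nlrc5* (0.10), followed by *H2-K1* and *H2-D1* (0.15). The points share libraries and depth, and the values are a description.

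Other genes of the pathway were taken from lists, beside the same backgrounds of 17.1% higher and 14.2% lower in Ova and 19.0% and 15.8% in IC. Among 19 tested other class I heavy chains, 3 were higher and 1 lower in Ova and 1 higher and 2 lower in IC. *H2-M3*, which presents N-formylated peptides, stood at 14.9, 17.1 and 19.7 CPM in DMSO_Ova and 8.33, 7.50 and 6.54 in IBET_Ova, and fell in Ova (-1.23 ± 0.17, edgeR adjusted p = 0.000157) and in IC (-1.21 ± 0.16, adjusted p = 0.000118). *Fcgrt*, the heavy chain of the neonatal Fc receptor, rose in Ova (0.55 ± 0.15, adjusted p = 0.0171) and in IC (0.49 ± 0.15, adjusted p = 0.0249). *H2-T22* and *H2-T9*, whose counts were equal in 11 of 12 libraries, rose in Ova (0.44 ± 0.12, adjusted p = 0.0158 for *H2-T22*). *Mr1*, which presents vitamin metabolites and is named after its value was seen, was lower in IC (-0.93 ± 0.28, adjusted p = 0.0200). The list's median was 0.38 in Ova and 0.30 in IC. The counts and medians of this list take rows with shared counts as separate genes. These are *H2-T22* with *H2-T9*, both among the 3 higher in Ova, *H2-Q6* with *H2-Q8*, and *H2-Q7* with *H2-Q9*.

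The loading and trimming list, 14 tested genes of peptide loading, of other endoplasmic reticulum transport and chaperone functions and of peptidases, had 4 higher and 1 lower in Ova and 6 higher and 1 lower in IC, with medians of 0.26 and 0.31. *Hspa5*, an endoplasmic reticulum chaperone, rose from 687, 654 and 763 CPM to 1725, 1683 and 1623 in Ova (1.26 ± 0.10, edgeR adjusted p = 4.06e-06) and by 1.35 ± 0.10 in IC (adjusted p = 1.95e-06). *Calr*, the calreticulin of the loading complex, rose by 0.80 ± 0.12 in Ova and 0.57 ± 0.12 in IC. The peptidases *Tpp2* and *Lnpep* rose by 0.49 ± 0.086 and 0.40 ± 0.088 in Ova. *Tapbpl*, the tapasin-related peptide editor, was the gene called lower, at -0.63 ± 0.19 in Ova (adjusted p = 0.0262) and -0.71 ± 0.18 in IC (adjusted p = 0.00985), and was named after its value was seen, as were *Bcap31* and *Abcb9*, the other 2 called higher in IC, *Abcb9* on 0 to 29 counts a library. Of the partners in the complex, *Pdia3* (0.26 ± 0.10 in Ova) and *Canx* (0.093 ± 0.19) were not called.

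**Figure D4:**
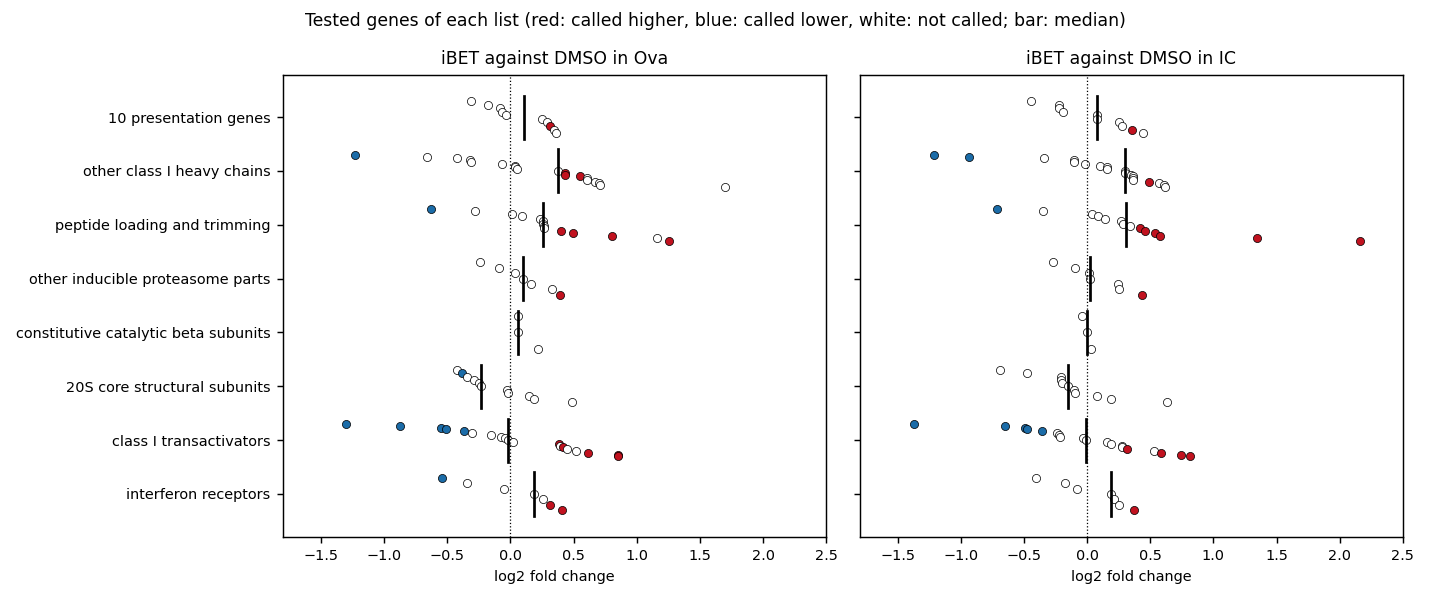
Log2 fold changes with iBET (horizontal axis) of the tested genes of each list, in Ova and in IC, as points coloured by call (red higher, blue lower, white not called) with a bar at the list's median. The 10 presentation genes hold 1 called gene in each panel, and the transactivator list has calls on both sides of 0.

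The proteasome lists were nearly without calls. A list of 7 other proteasome genes was grouped as inducible parts, but whether each of them is inducible was not tested. The only call in it was *Psme4*, a proteasome activator, higher in Ova (0.39 ± 0.094, edgeR adjusted p = 0.00758) and IC (0.43 ± 0.093). That call does not show a rise of the inducible proteasome. The other 6, among them *Psmb10*, *Psme1* and *Psme2*, were not called in either stimulus. *Psmb10*, the third inducible catalytic subunit, was estimated at -0.24 ± 0.14 and -0.27 ± 0.13 and not called. None of the 3 constitutive catalytic subunits (*Psmb5*, *Psmb6* and *Psmb7*), which *Psmb8*, *Psmb9* and *Psmb10* replace, was called by edgeR, with estimates of 0.059 to 0.22 in Ova. Of 11 structural subunits of the 20S core, *Psma1* was lower in Ova (-0.39 ± 0.097, adjusted p = 0.00961) and none was called in IC.

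Transcription factors that act on class I genes moved in both directions. Of 19 tested, 5 were higher and 5 lower in Ova and 4 higher and 5 lower in IC, with medians of -0.019 and -0.0051. *Stat2*, which carries interferon signals, rose from 64.2, 65.6 and 66.7 CPM to 123, 113 and 118 in Ova (0.85 ± 0.088, edgeR adjusted p = 2.24e-05) and by 0.82 ± 0.087 in IC. Its partner *Irf9* fell, by 0.55 ± 0.099 in Ova (adjusted p = 0.00119). *Nfya*, a subunit of the factor that binds CCAAT, and *Creb1*, which binds the cyclic AMP response element, rose by 0.85 ± 0.10 and 0.62 ± 0.096 in Ova. The remaining calls in Ova, named after their values were seen, were *Irf8* and *Irf1*, higher, and *Irf2*, *Rfx5*, *Nfyc* and *Nfkb1*, lower. With IC against Ova in iBET the list held 1 call, *Nfkb1* (0.76 ± 0.11, adjusted p = 0.00771). Of 7 interferon receptor and kinase genes, *Jak1* (0.41 ± 0.082, adjusted p = 0.00251) and *Jak2* (0.31 ± 0.099) were higher and *Ifngr2* (-0.54 ± 0.17, adjusted p = 0.0270) lower in Ova, and *Jak1* was higher in IC.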

How the data were processed

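Total RNA of 12 BMDM samples was sequenced. The labels have the cells sorted before lysis, whereas the study's methods have them lysed from culture. Following the study's methods and the submitters' processing notes, the authors trimmed reads with Trim Galore, aligned them to mm10 with HISAT2 and summed them by gene with featureCounts. The gene annotation, strand setting and handling of reads with several alignments are not given in the sources used here. The authors deposited raw counts per gene symbol, and a normalized signal that equalled those counts over each library's DESeq2 size factor (largest relative gap 4.88e-15).

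Genes were filtered with filterByExpr (minimum count 10) and scaled by TMM, and edgeR 4.0.16 in R 4.3.3 fitted 1 quasi-likelihood model (robust, 1 term a group) to the 12 libraries. Tests were two-sided, adjusted by Benjamini-Hochberg over 11468 genes and called at an adjusted p under 0.05. SEs are the log2 fold change over the square root of F, and edgeR may give genes of low dispersion a larger p than their interval implies, as for *Nlrc5*. Within-mouse differences compare log2 CPM computed with prior count 2. Labels give the mouse of each library, and deviations of same-mouse libraries from their group means correlated across genes with a median r of 0.263 (18 pairs, -0.0725 to 0.542), so the mouse was fitted as a block beside the main model. The median for different mice, -0.134, follows largely from centring each group of 3 libraries and is not a separate comparison.

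Alternatives used DESeq2 1.42.0, limma 3.58.1 on log2 of the signal plus 1, and sva 3.50.0 (1 surrogate variable). The fitting code was tested on simulated data with known changes. Each member was named in each comparison, and from each list up to 4 genes with the smallest p with iBET in Ova. The members and lists were chosen with earlier results of these data known. Counting error and the number of mice limit the precision. Levels with 1 library of few counts, as in DMSO_Ova of mouse A, are the least certain.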

Additional observations from a re-analysis of the deposited data

How the results depend on the processing

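The number of members called with iBET in Ova was 1 in the main model. It was 0 by DESeq2, with DESeq2 size factors in edgeR, with no filter on low counts, with at least 10 counts in every library, with only the groups compared, with *Rn45s* removed, with limma on the normalized signal and at an adjusted p under 0.01. In those settings 18.6% to 32.4% of all genes were called. The number of members was 2 with the mouse as a replicate block in edgeR (beside 38.3% of all genes). It was 5 with 1 surrogate variable (*H2-K1*, *H2-D1*, *Tap1*, *Tapbp* and *Nlrc5*, beside 39.9%). It ran from 0 to 4 when libraries or mice were left out (beside 11.4% to 33.9%). With iBET in IC it was 1 in the main model. It was 2 by DESeq2 (beside 35.7% of all genes), with DESeq2 size factors (34.4%) and with at least 10 counts in every library (36.5%). It was 3 with the replicate block in edgeR (42.1%) or in DESeq2 (41.5%). With 1 surrogate variable it was 4 (*H2-D1*, *Tap1*, *Tap2* and *Tapbp*, beside 43.1%). It was 0 at an adjusted p under 0.01 (21.8%), and 0 to 2 when libraries or mice were left out (15.4% to 38.8%). With the mouse as a replicate block and without the DMSO_Ova library of mouse A, chosen after seeing the data, it was 3 in Ova (beside 34.7% of all genes) and 4 in IC (*H2-D1*, *B2m*, *Tap2* and *Tapbp*, beside 44.8%). Leaving out mouse A gave 4 in Ova (*H2-K1*, *H2-D1*, *Tap1* and *Tap2*, beside 33.6% of all genes). In IC it gave 2 (*Tap1* and *Tap2*, both lower, beside 33.5%), so *Tapbp* was then called in neither stimulus. Leaving out mouse B gave 0 in each (beside 11.4% in Ova and 15.4% in IC), as did leaving out mouse C (17.7% and 21.7%). The block in edgeR ended no call. No setting called a member for IC against Ova or for the interaction. The cause of these changes was not tested.

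Estimates near 0 changed sign in some settings, none of them called. *Psmb9* for IC in DMSO, 0.031 in the main model, became -0.011 (mouse as replicate block in DESeq2). *H2-D1* for IC in iBET, -0.0023 in the main model, became 0.0035 (at least 10 counts in every library), 0.0038 (DESeq2), 0.0042 (DESeq2 size factors in edgeR), 0.0070 (mouse as replicate block in DESeq2), 0.0071 (normalized signal in limma), 0.0093 (no filter on low counts), 0.011 (Rn45s removed), 0.011 (only the groups compared) and 0.041 (1 surrogate variable). *Tap2* for IC in iBET, -0.011 in the main model, became 0.0012 (no filter on low counts), 0.0020 (only the groups compared), 0.0054 (normalized signal in limma) and 4.63e-06 (Rn45s removed). *Nlrc5* for IC in iBET, 0.020 in the main model, became -0.022 (1 surrogate variable). When libraries or mice were left out, estimates that changed sign ranged as follows. For iBET in Ova these were *Psmb8* -0.10 to 0.0072, *Psmb9* -0.29 to 0.072 and *Erap1* -0.21 to 0.0060. For iBET in IC these were *H2-K1* -0.074 to 0.21 and *Erap1* -0.032 to 0.17. For IC in DMSO these were *H2-D1* -0.041 to 0.17, *B2m* -0.18 to 0.14, *Tap1* -0.16 to 0.030, *Tap2* -0.048 to 0.24, *Psmb9* -0.12 to 0.20, *Nlrc5* -0.051 to 0.14 and *Erap1* -0.047 to 0.15. For IC in iBET these were *H2-K1* -0.049 to 0.20, *H2-D1* -0.090 to 0.095, *B2m* -0.079 to 0.21, *Tap2* -0.15 to 0.20 and *Nlrc5* -0.026 to 0.089. For the interaction these were *H2-D1* -0.16 to 0.046, *B2m* -0.080 to 0.25, *Tap1* -0.12 to 0.075, *Tap2* -0.38 to 0.022, *Tapbp* -0.058 to 0.12, *Psmb9* -0.28 to 0.062 and *Nlrc5* -0.12 to 0.079. Other estimates kept their direction. Depth limits *Psmb9* most, with 17 to 218 counts a library.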

Other observations

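*H2-Q5* and *H2-Q4*, Qa-region heavy chains outside the 10 genes, stood apart in 1 library. In the IBET_Ova library of mouse A *H2-Q5* had 1517 counts (117 CPM), against 10.8 to 36.6 CPM in the other 11 libraries, and *H2-Q4* had 211 CPM against 76.2 to 140 CPM. The estimates with iBET in Ova were 1.70 ± 0.78 for *H2-Q5* (edgeR adjusted p = 0.124) and 0.67 ± 0.30 for *H2-Q4* (adjusted p = 0.121), and in IC -0.019 ± 0.74 and 0.36 ± 0.30, none called.

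The summed counts of the 10 genes outside *Rn45s* were highest in the 2 iBET libraries of mouse A, at 0.913% in Ova and 0.900% in IC, beside 0.626% and 0.692% in its DMSO libraries. In mouse B the share was 0.786% and 0.782% with iBET and 0.745% and 0.743% with DMSO, and in mouse C 0.701% and 0.778% with iBET and 0.657% and 0.682% with DMSO. *B2m* and the heavy chains make up most of these counts.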
